A study of Caenorhabditis elegans with 2 samples.

Results

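The gene efl-3 of Caenorhabditis elegans was examined as a target of its own product, 1 gene of 19973 protein-coding genes on the nuclear chromosomes. It lies on the forward strand of chromosome II at 8412671 to 8416857 (ce11), has 8 exons and encodes EFL-3, an E2F family transcription factor. All peak summits in the gene body and in the 15000 bp on either side were taken from every deposited peak list. This stretch of 34.19 kb is called the efl-3 locus here. It held 3 of the 430 peaks that the authors kept after thresholding by the irreproducible discovery rate, which scores how well the replicates' rankings match. These 430 are called reproducible. It also held 19 of the 30000 peaks called on the pooled replicates, 14 of 30000 in replicate 1 and 22 of 30000 in replicate 2. The lists of 30000 peaks reach far into weak signal and are called relaxed.

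There was 1 group, EFL-3 ChIP-seq (chromatin immunoprecipitation with sequencing) of whole L1 larvae, with 2 biological replicates, and no comparison between groups could be made. The worms were of strain OP344, with the unc-119 allele tm4063 and the transgene wgIs344, in which efl-3 (F49E12.6) is fused to TY1, EGFP and 3xFLAG tags and which also holds unc-119(+). An antibody against GFP was used. The larvae were 6 hours old, of both sexes, and had been starved after bleaching to bring them to the same stage. The tag was at the C-terminus, that is at the stop codon of efl-3 (8416502 to 8416504). The labels do not give the promoter, the extent of worm DNA or the copy number of the transgene. Reads from a transgene copy align to the same bases as those of the endogenous gene. Wherever the transgene holds sequence of this locus, the copies cannot be told apart in these lists, and how far into the flanks that reaches is unknown. All lists were made against 1 control alignment, which was not analysed here, and read depth is unknown.

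E2F proteins bind GC-rich sites in promoters and are known for the control of cell cycle genes. Typical members bind with a DP partner, whereas atypical members, E2F7 and E2F8 in mammals and EFL-3 in worms, carry a pair of DNA-binding domains and act mainly as repressors. Genes of E2F family members are known targets of E2F proteins in mammals. Binding of a factor at its own gene is called autoregulation where it alters that gene's expression, which was not measured here.

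The 3 reproducible summits carry most of what is described below, so the 201 bases centred on each are shown first. The sequences are from the RefSeq copy of the WBcel235 assembly, which has the coordinates of ce11, and are given 5′ to 3′ on the forward strand of chromosome II, the strand of efl-3. Capitals mark TTTGAA, the cell cycle homology region (CHR) element of DREAM target genes.
chrII:8409596-8409796, summit 2975 bp upstream of the efl-3 start: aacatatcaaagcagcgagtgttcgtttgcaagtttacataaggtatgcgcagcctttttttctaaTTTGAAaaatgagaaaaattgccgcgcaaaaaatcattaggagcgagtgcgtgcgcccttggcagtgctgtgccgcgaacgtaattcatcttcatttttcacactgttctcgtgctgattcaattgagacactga
chrII:8410386-8410586, summit 2185 bp upstream: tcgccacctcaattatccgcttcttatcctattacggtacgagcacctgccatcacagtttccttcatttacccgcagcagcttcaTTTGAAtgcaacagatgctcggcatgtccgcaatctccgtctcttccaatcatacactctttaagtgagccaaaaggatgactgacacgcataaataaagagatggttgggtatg
chrII:8415563-8415763, summit in intron 7, no capitals because it holds none of the words searched: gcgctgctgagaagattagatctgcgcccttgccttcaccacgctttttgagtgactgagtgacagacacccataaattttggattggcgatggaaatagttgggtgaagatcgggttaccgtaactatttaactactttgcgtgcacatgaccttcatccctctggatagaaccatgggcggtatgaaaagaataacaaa

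The strongest EFL-3 peak of the locus lay inside efl-3, in intron 7, the last and longest intron. The intron runs from 8415108 to 8416470 (1363 bp), and the summit at 8415663 was 555 bp from its upstream end and 807 bp from its downstream end. The signal value, the peak caller's unitless measure of enrichment, was 204.2 in the pooled list, 101.1 in replicate 1 and 102.4 in replicate 2. The corresponding ranks were 72, 88 and 54. The replicate summits lay 31 bp and 5 bp from the pooled one, and the deposited −log10 q was 1.943 in the pooled list, 1.766 in replicate 1 and 1.771 in replicate 2. The peak was thus strong and similar in both replicates. Of the 430 reproducible summits, 73 were in introns of protein-coding genes and outside all exons, and the efl-3 one was number 15 of these by signal. A last intron held 10 of the 430, among them this one. Only 0.586% of protein-coding genes had a reproducible summit anywhere in the gene body.

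The other reproducible summits were a pair upstream of efl-3, 790 bp apart, in the intergenic sequence between sra-13 (a gene of the chemoreceptor family sra) and efl-3. At 8409696, 2975 bp upstream of the efl-3 start, the signal was 128.8 (rank 215) in the pooled list, 59.91 (rank 330) in replicate 1 and 69.79 (rank 158) in replicate 2. The −log10 q of this peak was 1.678, 1.388 and 1.322 in those lists. Replicate 2 thus placed it higher than replicate 1 did. At 8410486, 2185 bp upstream, the signal was 107.3 (rank 316) in the pooled list, 54.31 (rank 424) in replicate 1 and 58.28 (rank 255) in replicate 2. Its −log10 q was 1.128, 0.9985 and 0.9991, and the pooled value corresponds to a q of 0.0745. Both were among the 430 strongest peaks of each replicate. The replicate 1 summit of the nearer peak lay 73 bp from the pooled one, so a match within 50 bp would miss it.

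**Figure D1:**
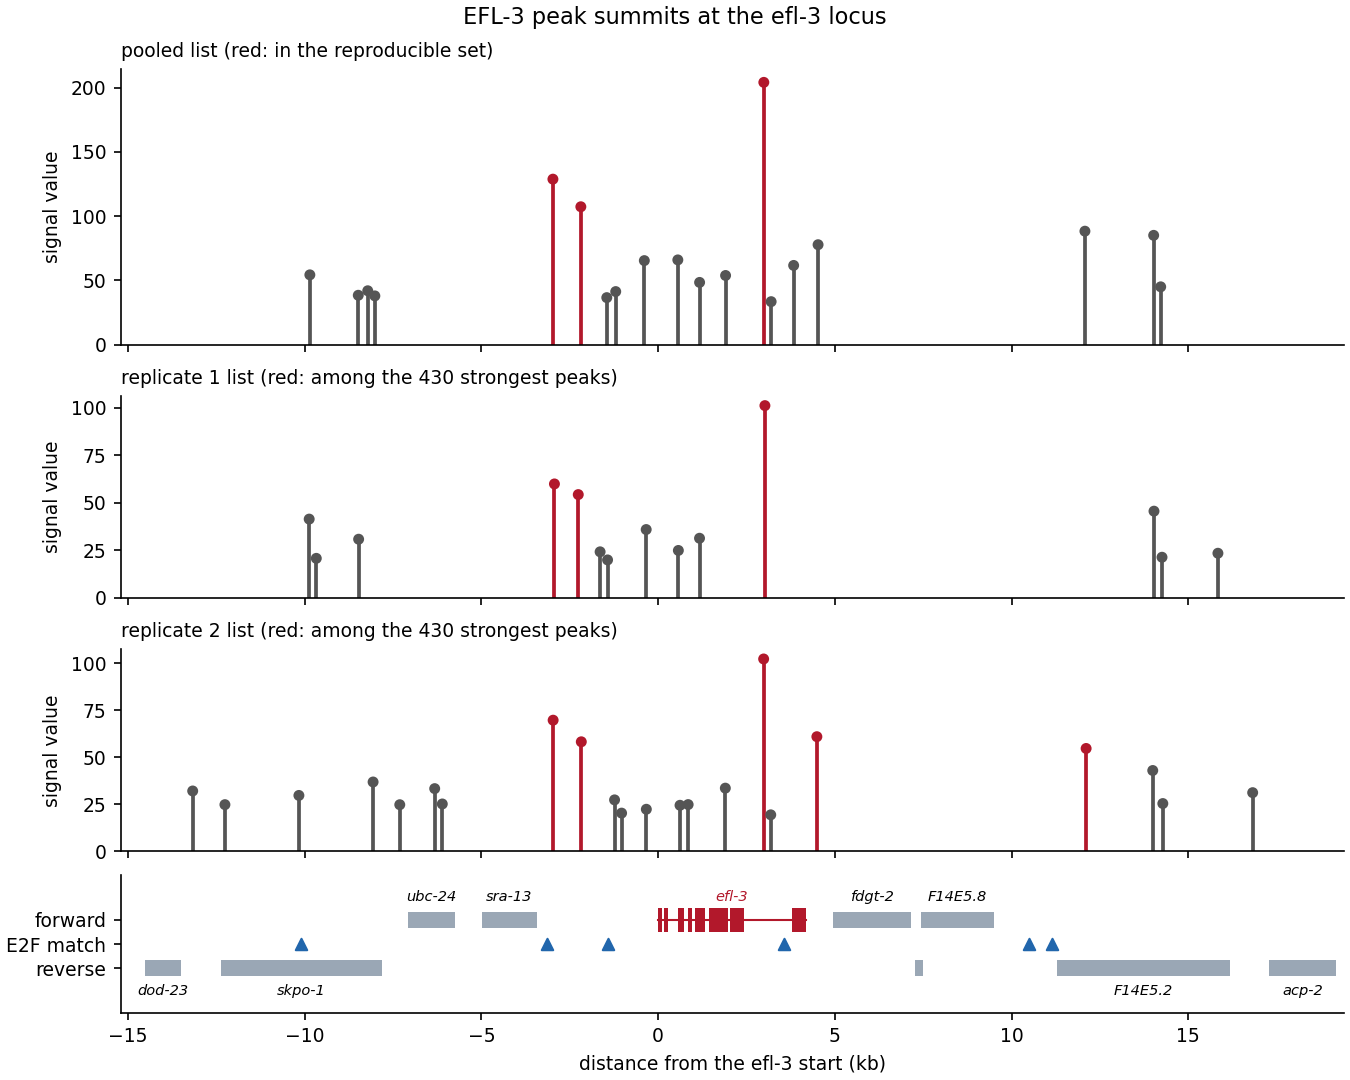
Summits at the efl-3 locus in the pooled list and in each replicate, by distance from the efl-3 start (x axis, kb) and signal value (y axis, unitless, a scale of its own for each list), with the annotated genes by strand (the unnamed block is the pseudogene), the exons of efl-3 as blocks and E2F consensus matches as triangles. The peak in the last intron is the highest in all 3 lists, the upstream pair is red in all 3, and 2 further red peaks downstream appear in replicate 2 alone.

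In all 3 reproducible peaks the replicate 2 signal was slightly the higher. The ratio of replicate 1 to replicate 2 ran from 0.858 to 0.987, against a median of 1.18 and quartiles of 0.956 and 1.46 over the 405 reproducible peaks found in both replicates, which include these 3. The pooled signal was close to the sum of the replicate signals, with a median ratio of 0.993 for the 3 peaks and 1 for the 405. Values of the pooled list are therefore not on the scale of a single replicate.

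**Figure D2:**
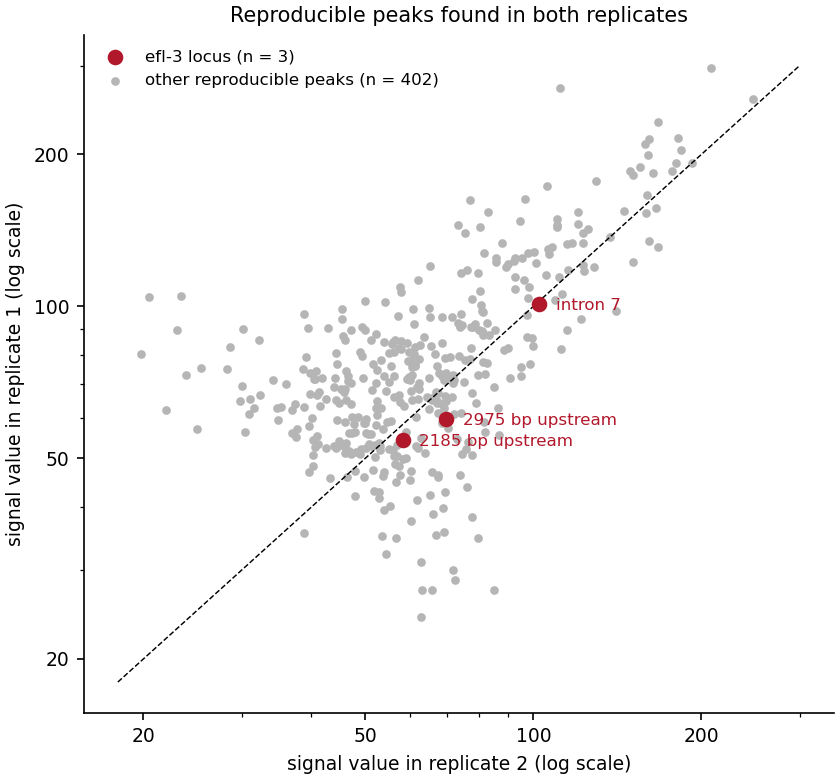
Signal value in replicate 1 (y axis, log scale) against replicate 2 (x axis, log scale) for the 405 reproducible peaks with a summit within 100 bp in both replicates; red points are the 3 peaks of the efl-3 locus, and the dashed line marks equal values. The efl-3 peaks lie just below the line, at 101.1 and 102.4 for the intronic peak, 59.91 and 69.79 for the peak 2975 bp upstream, and 54.31 and 58.28 for that 2185 bp upstream (replicate 1, then replicate 2).

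Close to the start of efl-3 the pooled signal was lower than at the reproducible summits. In the promoter window, from 1000 bp upstream to 500 bp downstream of the 1 annotated start, there was no reproducible summit, as for all but 1.93% of protein-coding genes. A relaxed summit lay there at 8412282, 389 bp upstream, with a signal of 65.35 (rank 1930) in the pooled list, 35.93 (rank 2637) in replicate 1 and 22.34 (rank 17618) in replicate 2. Its −log10 q of 0.09385 corresponds to a q of 0.806. The replicates ranked this promoter peak far apart, unlike the intronic one (ranks 88 and 54), which belongs to the reproducible set. That set equals the 430 strongest pooled peaks, and membership does not itself mean close ranks. A reproducible peak on chromosome IV, with its summit at 15646658, ranked 82 in replicate 1 and 22756 in replicate 2. How far apart the replicates ranked other relaxed peaks was not measured. A relaxed peak in the promoter window was common, at 43.6% of genes, and among the 8707 genes with one, 13.1% had a signal at least as high. The largest pooled promoter signal of these genes had a median of 44.81 and an upper quartile of 54.91, both below that of efl-3. The median share of G and C around summits was 43.3% in the reproducible list and 40.3% in the pooled list. The 201 bases around this summit were GC-rich at 55.2%, against 45.3% around the intronic summit and 42.3% and 45.8% around the upstream pair. They are shown here as the one promoter peak of efl-3, with the reverse complement of TTTGAA in capitals.
chrII:8412182-8412382, summit 389 bp upstream of the efl-3 start: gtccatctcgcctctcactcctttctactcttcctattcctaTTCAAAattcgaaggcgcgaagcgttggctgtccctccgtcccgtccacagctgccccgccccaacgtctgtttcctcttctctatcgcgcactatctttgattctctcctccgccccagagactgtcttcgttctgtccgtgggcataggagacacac

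Relaxed summits ran through the whole efl-3 gene. The gene body of 4187 bp held 6 relaxed summits in the pooled list, 3 in replicate 1 and 5 in replicate 2. Among the 4775 genes with a body within 1.5 times this length the median was 1 in each of these lists, and 0.293% had 6 or more in the pooled list. The same share was 14.1% for 3 or more in replicate 1 and 1.03% for 5 or more in replicate 2, so the replicates differed in how far efl-3 stood from other genes. Besides the intronic peak these pooled summits were at 8413230 in intron 2 (signal 65.9), 8413846 in exon 5 (48.37), 8414581 in exon 6 (53.76), 8415870 in intron 7 (33.38) and 8416507 in exon 8 (61.6). Of these 5, only the one in intron 2 had a counterpart in both replicates, where it was weak (rank 13159 in replicate 1, rank 13095 in replicate 2).

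The summit at 8416507 lay 5 bp from the first base of the efl-3 stop codon, in the 3′ untranslated region and beside the place where the fusion gene holds its tag. It ranked 2612 in the pooled list but had no counterpart in either replicate, the nearest summits being 813 bp away in replicate 1 and 648 bp away in replicate 2. A relaxed summit in skpo-1, at 8404457, was the only other pooled summit of the locus found in neither replicate. Of all pooled relaxed peaks, 13.3% were in neither. This position was singled out after its value was seen.

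Downstream of efl-3 the replicates differed. At 8417198, between efl-3 and fdgt-2 and 420 bp upstream of the fdgt-2 start, the pooled signal was 77.74 (rank 848) and the replicate 2 signal 61 (rank 227), with no summit in replicate 1 nearer than 1504 bp. At 8424748, in a coding exon of F14E5.2, the pooled signal was 88.27 (rank 541) and the replicate 2 signal 54.73 (rank 305), with the nearest replicate 1 summit 1954 bp away. Both were among the 430 strongest of replicate 2 only, and neither was in the reproducible set. Over the genome, 18.4% of the 430 strongest peaks of replicate 2 had no match within 100 bp in replicate 1, and 14% of those of replicate 1 had none in replicate 2. At 8424748, 22.1% of the 50-base words in the peak had another copy in the genome, and the part of that copy in this peak was not tested. The other 18 pooled peaks of the locus held no such word. A further peak in F14E5.2, at 8426693, was found in both replicates, with a pooled signal of 85.03 (rank 602), rank 865 in replicate 1 and rank 811 in replicate 2.

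No neighbouring gene had a reproducible peak, although fdgt-2, of a glucose transporter family, had a higher promoter signal than efl-3. Besides efl-3, the locus overlaps dod-23, skpo-1 (a heme peroxidase gene), ubc-24 (of the ubiquitin-conjugating enzyme family), sra-13, fdgt-2, F14E5.8, F14E5.2, acp-2 and 1 pseudogene. None of their gene bodies and none of their promoter windows held a reproducible summit. The promoter signal of efl-3, 65.35, stood against 77.74 for fdgt-2, a peak that replicate 1 lacked. Lower values were found for skpo-1 (41.86) and ubc-24 (37.86). There was no pooled promoter peak for dod-23, sra-13, F14E5.8, F14E5.2 or acp-2. By distance to the nearest protein-coding start, the reproducible summits fall to 3 different genes, namely fdgt-2 for the intronic peak (1955 bp from its start, against 2992 bp from that of efl-3), sra-13 for the farther upstream peak (1966 bp) and efl-3 for the nearer one. Distance alone therefore gives the strongest peak inside efl-3 to fdgt-2.

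The E2F consensus was not found at the reproducible peaks of the locus. The words TTTCCCGC, TTTCGCGC, TTTGCCGC and TTTGGCGC were searched on both strands within 100 bp of each summit. They were present at 0 of the 3 reproducible summits, against 32 of all 430 (7.44%), and at 1 of the 19 relaxed pooled summits, against 4.15% of all 30000. At shares this low, 0 of 3 says little. The E2F core words GGCGGGAA and GCGCGAAA were at 0 of 3, against 5.58% of all reproducible summits. The second is the reverse complement of the consensus word TTTCGCGC, so this search in part repeats the first. TTTGAA was 31 bp from the summit at 8409696 and 11 bp from that at 8410486, thus at 2 of 3, and 37.4% of all reproducible windows held it. The word GAGAGAGA and the E-box CACGTG were at 0 of 3, against 6.28% and 7.44% of all reproducible windows. A match is a word in the sequence and was not tested as a site.

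The locus as a whole had 6 matches to the E2F consensus, 0.176 per kb, against 0.195 per kb in the genome. The 3 nearest to the efl-3 start are shown. The match in intron 7 is also 268 bp from the relaxed summit at 8416507. All 3 are given as forward-strand sequence with the match in capitals.
chrII:8409511-8409558, match 161 bp from the summit at 8409696: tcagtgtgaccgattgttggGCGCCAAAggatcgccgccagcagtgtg
chrII:8411229-8411276, match 33 bp from the relaxed summit at 8411220: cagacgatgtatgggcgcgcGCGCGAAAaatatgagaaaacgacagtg
chrII:8416215-8416262, match in intron 7, 576 bp from the summit at 8415663: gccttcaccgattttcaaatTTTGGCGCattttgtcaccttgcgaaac
The second of these was the only consensus match within 100 bp of a pooled summit. That relaxed summit, 1451 bp upstream of the efl-3 start, had a signal of 36.52 and ranked 22286, among the weaker pooled peaks of the locus. The peak was found in replicate 1 (signal 19.95, rank 25038) and not in replicate 2. In replicate 2 the summit at 8402509 in an intron of skpo-1 (signal 29.71, rank 5825), absent from the other lists, also had a consensus match within 100 bp. With 1 mismatch allowed, a search added after seeing the data, 2 of the 3 reproducible windows held a match, namely the upstream pair, and the intronic one did not. Of all reproducible windows 53% held such a match and of all relaxed ones 41.4%, so it is a common occurrence. The closest to a summit was GCGCAAAA, 7 bp from the summit at 8409696 and readable in the sequence shown above.

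Among all protein-coding genes, efl-3 was near the top in the number of reproducible summits around it. A gene window of body and 15000 bp flanks held at least 1 reproducible summit for 12.7% of genes and 3 or more for 0.295% (59 genes). These 59 genes fall into 15 groups of overlapping windows, and 7 of them, efl-3 included, share the 3 summits described here. In the relaxed pooled list the efl-3 window held 19 summits, against a median of 9 (quartiles 6 and 12), and 4.26% of genes had at least as many. The counts of 14 in replicate 1 and 22 in replicate 2 were reached by 19.7% and 0.816% of genes. The reproducible summits were also close together. They spanned 5967 bp, and 13 of the 430 reproducible summits (3.02%), among them these, belonged to a group of 3 within that span.

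**Figure D3:**
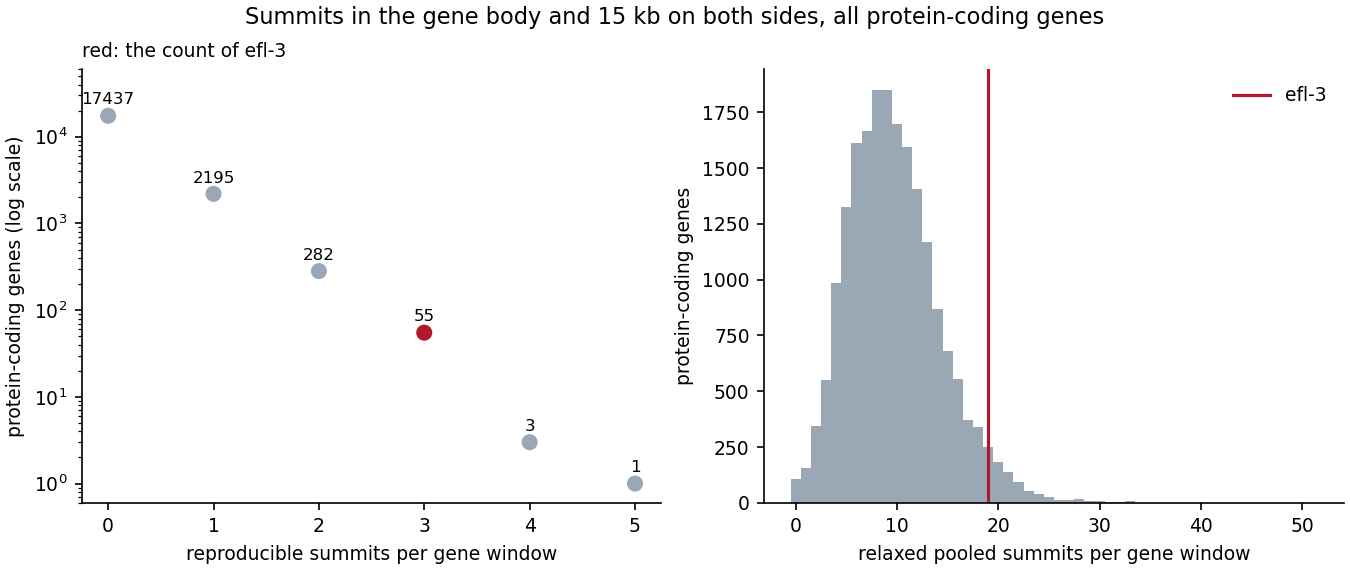
Number of protein-coding genes (y axis, log scale at left, linear at right) by the number of reproducible summits (left) and of relaxed pooled summits (right) in the gene body and 15 kb on both sides. The efl-3 counts, 3 and 19, are in red; 55 genes had exactly 3 reproducible summits and 4 genes had more.

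On a wider scale, relaxed summits were concentrated around efl-3 with sparse stretches on both sides. In bins of 5000 bp counted from the middle of the gene, the bin just upstream of the middle held 7 summits in the pooled list, 6 in replicate 1 and 7 in replicate 2. The median bin of the genome held 1 in each of these lists, and counts as high were reached by 0.0648%, 0.539% and 0.0648% of 20050 bins. This bin was picked as the fullest within 60000 bp of the middle of efl-3. A highest count is thus set against single bins, and these shares make the locus look rarer than it is. The 30 kb centred on the gene held 19 pooled summits, against 1 in the 30 kb upstream of that and 0 in the next 10 kb downstream. In the same stretches replicate 1 had 14, 1 and 0 and replicate 2 had 21, 3 and 0. These limits were set after seeing the data, and the downstream stretch is the shorter. The bin just beyond it held 4 pooled summits, 5 in replicate 1 and 3 in replicate 2. The genome had 0.299 pooled summits per kb, and how common such sparse stretches are was not counted. Whether extra copies of the locus on the transgene bear on this density was not tested. The gene unc-119, on chromosome III at 10902641 to 10908935, also has a copy on the transgene. Its window had 0 reproducible summits, 18 relaxed pooled ones and a largest pooled signal of 79.31 (rank 778), with no such drop beside it. How much of the unc-119 region the transgene holds is unknown, so nothing about transgene copies can be read from this.

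**Figure D4:**
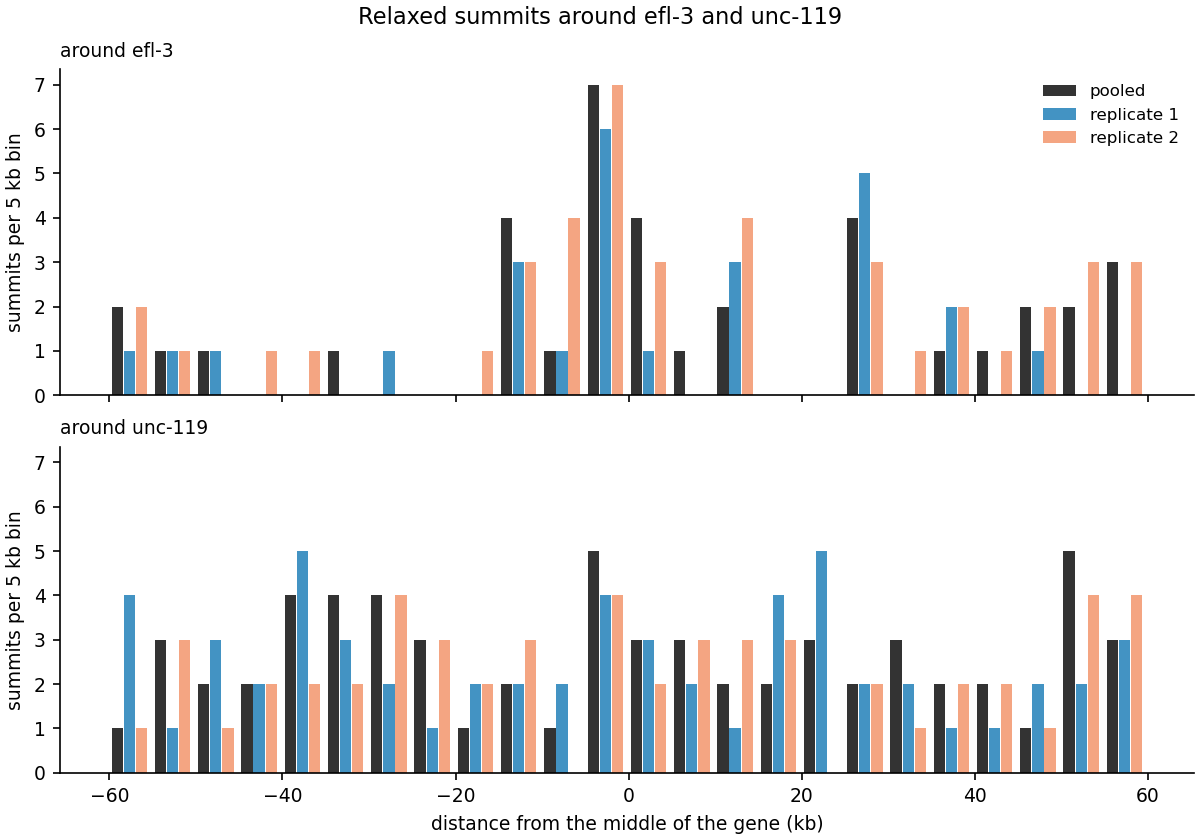
Relaxed summits per 5 kb bin (y axis) by distance from the middle of the gene (x axis, kb) around efl-3 (top) and unc-119 (bottom), in the pooled list and each replicate. Around efl-3 the highest bin holds 7, 6 and 7 summits, and the bins from 15 to 25 kb downstream are empty in all 3 lists; around unc-119 the pooled counts vary between 1 and 5.

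Some of the other E2F and DREAM genes examined had a reproducible summit at the promoter, where efl-3 had none. DREAM is the complex of Rb-like, E2F, DP and MuvB proteins that represses cell cycle genes. At 4 of the 9 genes of this list the promoter window contained a reproducible summit, against 1.93% of all protein-coding genes. The window of body and 15000 bp flanks held at least 1 at 4 of the 9, against 12.7% of all genes. A reproducible summit in the body was found at 0 of the 9, against 0.586% of all genes, and 3 or more in the window of body and flanks at 0 of the 9, against 0.295%. With shares this low over all genes, a count of 0 of 9 does not set these genes apart from others. For the typical E2F genes efl-1 and efl-2 the largest pooled promoter signals were 68.57 (rank 1541) and 33.71 (rank 27456), and the largest signals in the body outside the promoter window were 61.79 and 72.1. The DP gene dpl-1 had 48.74 in its promoter window and no peak in the body. The corresponding signals of efl-3 were 65.35 and 204.2, so efl-1 and efl-3 differed little at the promoter, and efl-2, too, had more in the body than at the start. The 4 genes with a reproducible promoter summit were lin-9 (187.7), lin-35 (147.6), lin-53 (144.6) and lin-54 (135.1), while lin-37 and lin-52 had no pooled promoter peak. The cell death gene egl-1 had 46.08 in its promoter window. The Hox gene lin-39 had 93.62, just under the weakest reproducible signal of 94.83, and the Hox cofactor gene ceh-20 had 60.86. In the 15000 bp flanks, lin-39 had a reproducible summit downstream (303.7) and ceh-20 had one upstream (113.6). No reproducible summit lay in the window of egl-1. The list was chosen with earlier results of these data known, and no test was made.

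The genes most like efl-3 were found from 4 values, the largest pooled signal in the promoter window, in the rest of the body, and in the 15000 bp upstream and downstream. Likeness was the Euclidean distance on the log10(1 + signal) scale, 0 meaning equal. Genes whose window overlaps that of efl-3 were left out. Where several genes share the same summits, the next ones were skipped, so the 5 genes below are the nearest under these rules. These signals were 65.35, 204.2, 128.8 and 88.27 for efl-3. The nearest were egl-18, a GATA factor gene (distance 0.216; 54.96, 177.6, 91.67 and 65.62), and hmt-1, a heavy metal tolerance transporter gene (0.226; 44.81, 171.5, 142 and 120.2). They were followed by pqn-41 (0.321), ccch-1 (0.359) and ell-1 (0.365), with body signals of 212, 99.45 and 300.5. Of these 5 genes, hmt-1 and pqn-41 had 3 or more reproducible summits in the window (3 and 5).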

How the data were processed

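ChIP-seq peak lists of EFL-3 from 2 replicates of 1 group were used. Per the file headers and the labels, peaks were called on ce11 for each replicate and for the pooled replicates against 1 control alignment, and the pooled peaks were thresholded by the irreproducible discovery rate. The aligner, the peak caller and its settings were not stated in the labels or the file headers. The deposited signal values (column 7), −log10 q values (column 9) and summit offsets were used as the authors gave them. Signal only ranks and describes peaks within a list.

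The 430 reproducible peaks were identical to the 430 strongest pooled ones, which share coordinates, signal and summit. A summit is column 2 plus column 10, written 1-based. Genes came from Ensembl release 115 (WBcel235) and sequence from RefSeq for the same assembly, and no peak ended beyond its chromosome. A replicate summit within 100 bp was a match. Promoter windows ran 1000 bp upstream to 500 bp downstream of any protein-coding start. Counting used Python 3.11.15 and pandas 2.3.3, and was tested on simulated data. No test was made, since there is 1 group and no control sample. The gene, the lists and the windows were chosen with earlier results of these data known. Besides efl-3, the rule for named genes took unc-119, the genes overlapping the locus, 9 E2F and DREAM genes, egl-1, lin-39 and ceh-20, and the 5 genes most like efl-3.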

Additional observations from a re-analysis of the deposited data

How the results depend on the processing

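Of 19 alternative settings over 7 results, 14 left the value within 1.5 times, within the spread between replicates or, for a share, within its interval. The 3 reproducible summits were the same in number with flanks of 5000 or 30000 bp and with peak overlap in place of the summit, and 2 with the stronger part of the set alone. Taking the strongest peaks of a single replicate gave between 3 and 5 (5 without replicate 1, that is in replicate 2 alone). The relaxed pooled count was 12 with flanks of 5000 bp and 24 with 30000 bp, and 14 to 22 in single replicates. Matching within 50 bp left 2 of 3 summits matched in both replicates. The E2F consensus was at 1 of 3 reproducible summits within 200 bp, and at 2 with 1 mismatch allowed, the last added after seeing the data. Among genes with a body within 1.5 times the length of efl-3, 0.398% (19 of 4775) had 3 or more reproducible summits in the window. By −log10 q, 132 pooled peaks share the maximum, the intronic peak among them, and each has their mean rank of 66.5. This setting, counted among the 14, therefore does not place the intronic peak within the tied ones. Read depth is unknown, with 2 replicates and no control list, so neither counting error nor the background of an untagged strain could be given. No paired analysis was possible because there is 1 group.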
